A study of Mus musculus with 70 samples.

Results

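The pituitary RNA libraries of wild-type and *Thrb*-KO mice were compared for the genotype by T3 interaction, that is, for how far the response of each gene to T3 (triiodothyronine, the active thyroid hormone) differed between the genotypes. The members were the 18 RNA libraries of 70 samples in the series, and all 4 groups entered a single fit. Each group was given 0.05% methimazole (MMI, which blocks hormone synthesis) and 1% potassium perchlorate (which blocks iodide uptake) in drinking water for 4 to 5 weeks, so the hypothyroid and the hyperthyroid mice were both made hypothyroid. The hyperthyroid groups also received T3 at 0.5 µg/ml in the water during the last 1 week. The hypothyroid and hyperthyroid wild-type groups held 4 libraries each, and the hypothyroid and hyperthyroid *Thrb*-KO groups held 5 each. The mice were adult males of 2 to 4 months on a C57BL/6J background, and each library was made from a pool of 3 whole pituitaries. In *Thrb*-KO mice (*Thrb*-/-) the gene for thyroid hormone receptor β is deleted in every cell and throughout life, so an effect of the deletion in the pituitary and an effect of the deletion elsewhere in the animal cannot be told apart. The values were CPM, read counts scaled to a common library total, every fold change is a difference of group means on the log2(CPM + 1) scale, and this scale understates the change of genes near 1 CPM. The interaction of a gene is its T3 response (hyperthyroid minus hypothyroid) in *Thrb*-KO minus its T3 response in wild type.

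Thyroid hormone acts through nuclear receptors encoded by *Thra* and *Thrb*. At many induced genes the receptor, usually paired with a retinoid X receptor, holds corepressors on DNA in the absence of hormone and exchanges them for coactivators when T3 binds, and a common binding site is a direct repeat of the half-site AGGTCA with 4 bases between the copies. In the pituitary the hormone also lowers the RNA of both thyrotropin subunits in thyrotrophs, the arm of the feedback loop by which the gland senses the circulating level. TRβ is the receptor most associated with that feedback, and TRα is expressed in the same gland.

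Far fewer genes were called for a T3 response in *Thrb*-KO than in wild type. Of 13145 genes above 1 CPM in all 18 libraries, 509 rose in wild type (3.87% of genes tested) and 735 fell (5.59%), against 54 that rose (0.411%) and 79 that fell (0.601%) in *Thrb*-KO. These calls required a Benjamini-Hochberg adjusted p below 0.05 in limma and a change of at least 1.5-fold. The adjustment ran separately for each contrast. A response of equal size relative to its standard error (SE) could therefore pass the p limit in wild type and fail it in *Thrb*-KO. For example, *Ncoa1* in wild type (0.52 ± 0.15 log2 units) had a limma adjusted p of 0.0194. *Aspm* in *Thrb*-KO (0.54 ± 0.16) had 0.109. The interaction itself was called for 560 genes, with 326 more positive in *Thrb*-KO (2.48%) and 234 more negative (1.78%), and 1968 genes had an unadjusted p below 0.05. In 546 of the 560 the *Thrb*-KO response lay nearer 0 than the wild-type response, and in the other 14 it lay farther from 0. Wild-type and *Thrb*-KO responses were correlated across the 13145 genes (Pearson r = 0.649), which is a description across genes of the same libraries, not a test.

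The share of interactions in each direction depended on the scaling. After the CPM values were rescaled by TMM factors the counts were 252 more positive and 324 more negative, edgeR on the recovered reads gave 306 and 322, DESeq2 gave 348 and 384, and leaving out hyperthyroid wild type replicate 3 gave 325 and 373. The wild-type response itself moved from 509 higher and 735 lower to 674 and 539 with TMM factors. Hyperthyroid wild type replicate 3 stood apart from its group. Its median correlation with the other 3 libraries was 0.925, its 20 most abundant genes took 25.9% of its reads, and 54 ribosomal protein genes lay at a median of 1.19 log2 units above the other hyperthyroid wild-type libraries. The libraries also fell into 2 sets by replicate number. *Lars2*, a mitochondrial leucyl-tRNA synthetase gene, ranged from 2571 to 3420 CPM in the 8 libraries of replicates 1 and 2 and from 53.2 to 95.1 CPM in the 10 libraries of replicates 3 to 5. Both sets held all 4 groups.

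Of the 1244 genes that T3 changed in wild type, 463 (37.2%) lost the response, meaning that the gene was not called in *Thrb*-KO and its interaction was called toward 0. A further 53 (4.26%) were weakened, with a called response of the same direction in both genotypes and a called interaction toward 0. In 58 (4.66%) the response was kept, with calls of the same direction in both genotypes and no called interaction. Another 2 were enhanced, 3 were reversed, and 665 (53.5%) stayed unresolved, because neither the *Thrb*-KO response nor the interaction was called. Outside these 1244, 5 knockout-only genes were called in *Thrb*-KO and for the interaction and not in wild type, 34 genes were called for the interaction alone, and 12 were called in *Thrb*-KO with neither the wild-type response nor the interaction called. The remaining 11850 genes were in none of these classes. The classes are made from the calls themselves, so the response sizes within a class describe its members and are not evidence for it. On simulated data with known interactions, run on the same 13145 genes, the test recovered 19.4% of 1.5-fold, 67.2% of 2-fold and 93.9% of 4-fold interactions. The simulation changed 67, 67 and 66 genes at these sizes and no others, while 560 interactions were called in the data. The adjusted p limit therefore need not match, and the shares recovered may differ in the data. Most 1.5-fold interactions were missed in the simulation, and many of small size can have been missed in the data. Recovery needed both the adjusted p and an estimate of at least 1.5-fold, so interactions near 1.5-fold can be missed with any number of libraries. The parts of this limit and of the number of libraries were not separated.

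**Figure D1:**
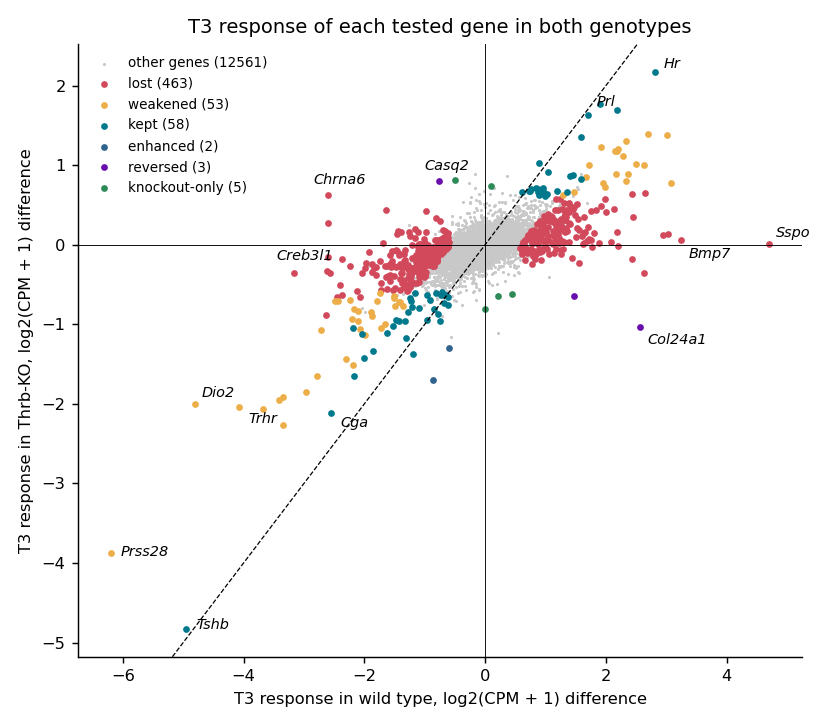
T3 response in wild type (horizontal axis) against the T3 response in *Thrb*-KO (vertical axis), both as log2 fold change of CPM + 1, with 1 point for each of the 13145 genes, the response classes in colour and a dashed line where the responses are equal. The lost genes lie along the horizontal line at 0, *Sspo* farthest out at 4.71 in wild type and 0.01 in *Thrb*-KO, and the kept genes, such as *Tshb* at -4.96 and -4.83, lie nearer the dashed line.

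The genes that lost induction included 195 with a median wild-type response of 1.11 log2 units and a median *Thrb*-KO response of 0.14, which was 12.3% of the wild-type response. Of these, 157 had a *Thrb*-KO response of the same sign and 38 had the opposite sign. The hypothyroid and hyperthyroid wild-type libraries did not overlap for 190 of the 195 genes, and the *Thrb*-KO libraries did not overlap for 41. Over all genes tested the libraries did not overlap for 2287 (17.4%) in wild type and 733 (5.58%) in *Thrb*-KO, and the lost genes had been chosen by the wild-type contrast. With TMM factors 280 genes lost induction, and without hyperthyroid wild type replicate 3 the number was 311. The member with the largest interaction was *Sspo*, which encodes SCO-spondin, a large secreted glycoprotein (chromosome 6, 48398228 to 48451249, build mm9). *Sspo* measured 3.62, 3.38, 2.73 and 2.14 CPM in hypothyroid and 105, 109, 72.6 and 129 CPM in hyperthyroid wild-type libraries. The *Thrb*-KO libraries measured 3.25, 3.40, 2.88, 2.56 and 2.11 CPM without T3 and 3.61, 2.87, 2.84, 2.36 and 2.66 CPM with it. Every hyperthyroid wild-type library was therefore far above every other library, and the *Thrb*-KO groups overlapped. The interaction of *Sspo* was -4.69 ± 0.22 log2 units (SE, limma adjusted p = 4.42e-10).

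*Bmp7*, a secreted bone morphogenetic protein, measured 4.51, 4.02, 3.33 and 2.76 CPM in hypothyroid and 54.7, 55.8, 26.0 and 42.6 CPM in hyperthyroid wild-type libraries. The *Thrb*-KO libraries held 4.68, 4.22, 4.03, 3.85 and 3.36 CPM without T3 and 4.89, 3.98, 3.88, 3.91 and 4.47 CPM with T3. The wild-type groups were separate, the *Thrb*-KO groups overlapped within a narrow range, and the interaction was -3.20 ± 0.25 (limma adjusted p = 1.97e-07). *Col4a3*, a collagen IV chain of basement membranes, measured 12.2, 15.5, 4.68 and 5.73 CPM in hypothyroid and 114, 113, 35.0 and 62.3 CPM in hyperthyroid wild-type libraries, against 4.57 to 7.95 and 4.71 to 9.24 CPM in the *Thrb*-KO groups. Its levels were higher in replicates 1 and 2 than in replicates 3 and 4 of each wild-type group, and the interaction was -2.83 ± 0.48 (limma adjusted p = 0.00109). *Col4a4*, the collagen chain gene beside *Col4a3* on the other strand, was named after its values were seen and had an interaction of -2.02 ± 0.47 (limma adjusted p = 0.0132).

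*Myh7*, the slow cardiac and skeletal myosin heavy chain, measured 5.56, 5.19, 5.21 and 4.57 CPM in hypothyroid and 46.4, 52.1, 20.9 and 36.9 CPM in hyperthyroid wild-type libraries. The *Thrb*-KO libraries held 6.09 to 8.92 CPM without T3 and 4.70 to 6.85 CPM with T3, and the interaction was -2.99 ± 0.27 (limma adjusted p = 1.14e-06). Skeletal muscle markers were near 0 in the same libraries, with 4 markers summing to at most 2.19 CPM. *Upk3a*, a uroplakin known from the bladder lining, rose from 1.81 to 2.46 CPM to 21.6 to 27.5 CPM in wild type and ranged from 1.18 to 2.38 CPM over all 10 *Thrb*-KO libraries. *Cdc42ep2*, an effector of the small GTPase Cdc42, rose from 3.44 to 3.95 CPM to 16.9 to 30.7 CPM in wild type and ranged from 2.55 to 3.83 CPM in *Thrb*-KO. The interactions of *Upk3a* (-2.89 ± 0.17) and *Cdc42ep2* (-2.61 ± 0.18) were both called (limma adjusted p = 9.95e-09 and 3.65e-08).

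Peaks of TRβ binding lay beside several of these genes. The peaks came from untreated pituitaries whose TRβ carried a tag that can be biotinylated (TRβ-HAB), and the repeat described above was searched in each peak on both strands with at most 2 mismatches over the 12 half-site bases. Of 8051 pituitary peaks, 1686 (20.9%) held such a match. The matches beside *Bmp7*, *Col4a3* and *Sspo* are shown because these genes lost nearly all of their response, with the half-sites in capitals and 15 bases on each side, read 5′ to 3′ on the minus strand of build mm9.
Bmp7: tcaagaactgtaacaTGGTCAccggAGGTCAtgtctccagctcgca
Col4a3: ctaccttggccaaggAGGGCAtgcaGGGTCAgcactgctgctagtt
Sspo: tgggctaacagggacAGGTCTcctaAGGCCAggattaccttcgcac
The *Bmp7* sequence spans chr2:172767521-172767566, with the match 1722 bases upstream of the gene start, and it matched 11 of 12 bases. The *Col4a3* sequence spans chr1:82586952-82586997, lies 3479 bases inside the gene and matched 10 bases. The *Sspo* sequence spans chr6:48442901-48442946, lies 44696 bases inside the gene and also matched 10 bases. All 3 peaks overlapped a T3-regulated region of open chromatin, as did 872 of the 8051 pituitary peaks. A match of letters is a description and does not show that the receptor sits on it.

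The genes that lost suppression numbered 268, with a median wild-type response of -1.01 log2 units and a median *Thrb*-KO response of -0.16, which was 13.9% of the wild-type response. The *Thrb*-KO response had the same sign in 218 and the opposite sign in 50. The wild-type libraries did not overlap for any of the 268, and the *Thrb*-KO libraries did not overlap for 62. Over all genes tested the libraries did not overlap for 17.4% in wild type and 5.58% in *Thrb*-KO. The 268 had been chosen by the wild-type contrast. With TMM factors 201 genes lost suppression, against 268 without hyperthyroid wild type replicate 3. *Creb3l1*, a transcription factor held in the endoplasmic reticulum membrane, measured 156, 134, 195 and 193 CPM in hypothyroid and 19.1, 16.6, 19.1 and 16.4 CPM in hyperthyroid wild-type libraries. The *Thrb*-KO libraries measured 28, 26.7, 24.6, 25.3 and 33.9 CPM without T3 and 21.5, 20.1, 21.0, 18.9 and 26.3 CPM with it. The hypothyroid *Thrb*-KO libraries thus lay close to the hyperthyroid wild-type level and far below the hypothyroid wild-type level, and the interaction was 2.82 ± 0.17 (limma adjusted p = 1.00e-08).

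*Hs6st2*, a heparan sulfate sulfotransferase, showed the same arrangement. It measured 36, 36.6, 56 and 68.3 CPM in hypothyroid wild-type libraries, and between 4.29 and 8.19 CPM in every library of the other 3 groups. Its interaction was 2.44 ± 0.24 (limma adjusted p = 3.93e-06). *Kcnk10*, a background potassium channel, measured 20.6, 25.0, 23.6 and 19.1 CPM in hypothyroid and 2.34 to 3.38 CPM in hyperthyroid wild-type libraries, with *Thrb*-KO between them at 5.88 to 8.41 CPM without T3 and 5.43 to 11.7 CPM with it. *Gpr123*, an adhesion-class receptor, measured 48.8 to 67.4 CPM in hypothyroid and 8.55 to 9.24 CPM in hyperthyroid wild type, against 29.0 to 31.7 and 20.7 to 28.4 CPM in *Thrb*-KO. *Asb4*, a substrate adaptor of ubiquitin ligases, measured 272 to 370 CPM and 46.7 to 68.3 CPM in wild type, against 139 to 164 and 105 to 128 CPM in *Thrb*-KO. For *Gpr123* and *Asb4* the *Thrb*-KO libraries did not overlap between the conditions, but the responses of -0.33 and -0.36 log2 units were below 1.5-fold and were not called. *Nog*, the bone morphogenetic protein antagonist noggin, was named after its values were seen because *Bmp7* lost its induction. It measured 24.9, 21.3, 21.4 and 21.4 CPM in hypothyroid and 3.91, 3.19, 3.93 and 3.04 CPM in hyperthyroid wild type, against 16.1 to 19.3 and 11.8 to 20.6 CPM in *Thrb*-KO, with an interaction of 2.19 ± 0.18 (limma adjusted p = 3.83e-07).

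*Chrna6*, a nicotinic acetylcholine receptor subunit, had the largest interaction among the genes that lost suppression. It measured 68.0, 65.4, 126 and 126 CPM in hypothyroid and 18.9, 13.9, 12.6 and 12.6 CPM in hyperthyroid wild-type libraries. In *Thrb*-KO it measured 20.2, 20.0, 40.0, 36.8 and 23.2 CPM without T3 and 57.2, 51.0, 38.7, 37.1 and 30.5 CPM with T3. The *Thrb*-KO groups overlapped in the pooled data, where the response of 0.62 ± 0.24 was not called (limma adjusted p = 0.336) and the interaction was 3.22 ± 0.36 (limma adjusted p = 1.45e-05). Within replicates 1 and 2 alone, the *Thrb*-KO response was called and the gene was classed as reversed.

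*Thrb* was itself among the genes that lost suppression. It measured 239, 242, 249 and 297 CPM in hypothyroid and 124, 117, 72.4 and 103 CPM in hyperthyroid wild-type libraries. In the libraries labelled *Thrb*-KO it measured 239 to 295 CPM without T3 and 228 to 301 CPM with T3. The interaction was 1.26 ± 0.19 (limma adjusted p = 0.000322). Values per transcript cannot separate the deleted stretch from the remaining exons, so the *Thrb* level is no check of the genotype labels. In *Thrb*-KO this RNA comes from the altered gene itself. A lost T3 response of *Thrb* and an effect of the altered allele on its own RNA cannot be told apart. *Thra*, which encodes TRα and whose 3′ end overlaps *Nr1d1* on the opposite strand, had an interaction of 0.32 ± 0.13 that was not called (limma adjusted p = 0.234). Its levels were 64.1 to 87.5 and 46.8 to 61.8 CPM in wild type and 79.8 to 93.8 and 73.9 to 87.5 CPM in *Thrb*-KO.

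**Figure D2:**
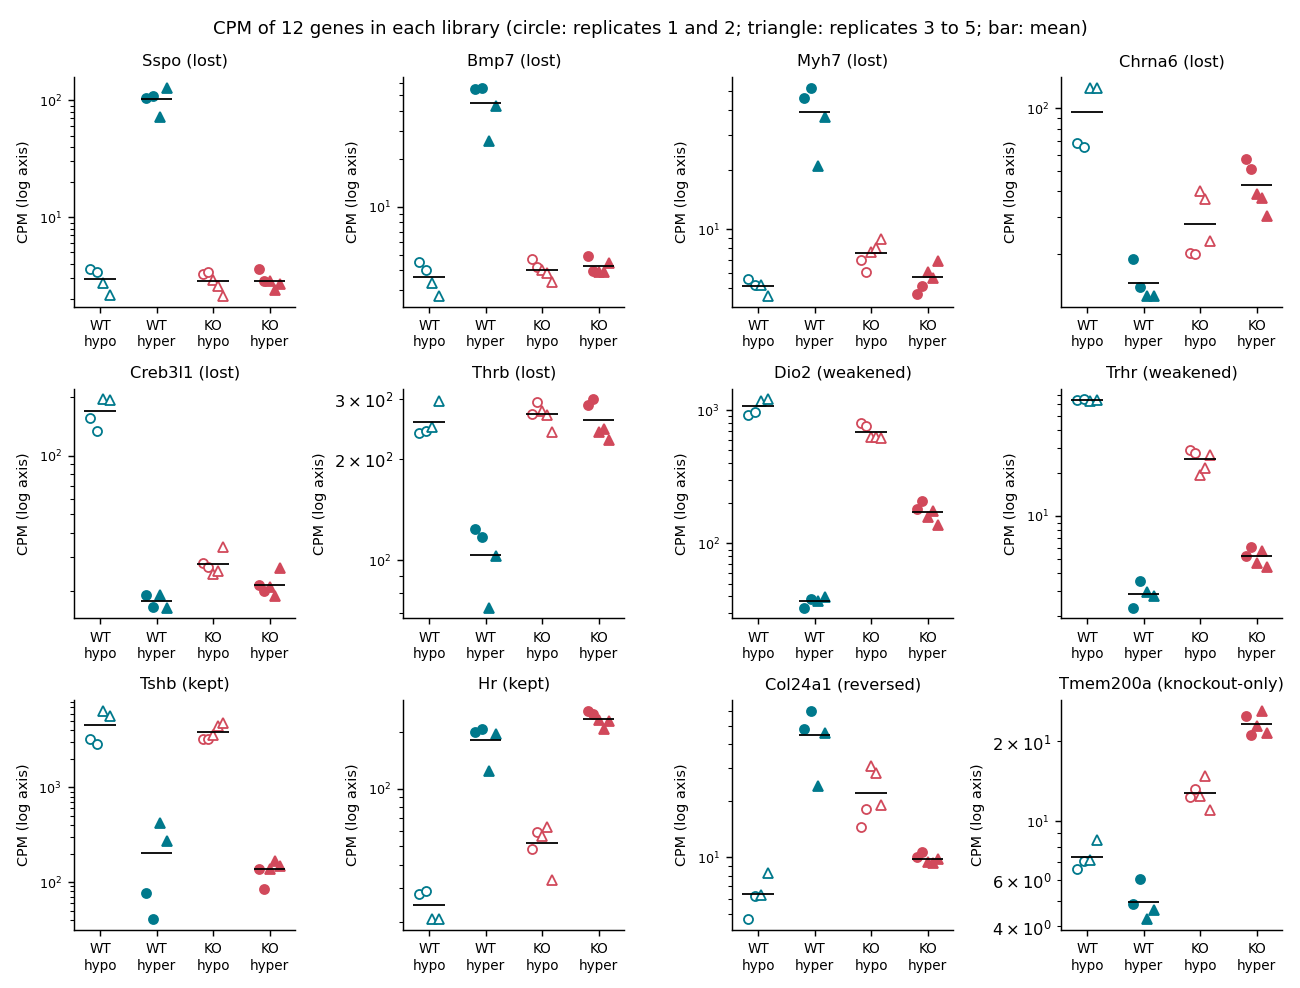
CPM (log axis) of 12 named genes in each of the 18 libraries, by group, with open symbols for hypothyroid and filled symbols for hyperthyroid libraries, circles for replicates 1 and 2, triangles for replicates 3 to 5, and a bar at the group mean. *Sspo* reached 72.6 to 129 CPM in hyperthyroid wild type and stayed below 4 CPM elsewhere, *Tshb* fell in both genotypes, and *Dio2* fell in both but reached a lower level in wild type.

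The 53 weakened genes retained about 46.8% (20 induced genes) and 50.4% (33 suppressed genes) of their wild-type response at the median. Their libraries did not overlap between conditions in either genotype, against 17.4% of all genes tested in wild type and 5.58% in *Thrb*-KO. The weakened genes had been chosen by calls in both genotypes. *Dio2*, the deiodinase that converts thyroxine to T3, measured 917, 974, 1175 and 1210 CPM in hypothyroid and 32.9, 38.2, 37.2 and 39.3 CPM in hyperthyroid wild-type libraries. In *Thrb*-KO it measured 806, 761, 631, 627 and 621 CPM without T3 and 182, 207, 159, 174 and 137 CPM with it. T3 thus lowered *Dio2* in both genotypes, by 4.81 ± 0.13 log2 units in wild type and by 2.00 ± 0.11 in *Thrb*-KO, and the interaction was 2.81 ± 0.17 (limma adjusted p = 1.00e-08). *Trhr*, the receptor for thyrotropin-releasing hormone, measured 62.9 to 65.2 CPM in hypothyroid and 2.29 to 3.52 CPM in hyperthyroid wild type, against 19.2 to 29.0 and 4.43 to 6.07 CPM in *Thrb*-KO. The *Trhr* level was already lower in hypothyroid *Thrb*-KO libraries than in any hypothyroid wild-type library, and its interaction was 2.04 ± 0.17 (limma adjusted p = 4.99e-07).

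*Dock6*, a guanine nucleotide exchange factor, was the weakened induced gene with the largest interaction. It measured 35.0, 35.6, 23.9 and 22.5 CPM in hypothyroid and 252, 303, 153 and 336 CPM in hyperthyroid wild type, against 30.9 to 42.8 and 59.2 to 76.2 CPM in *Thrb*-KO. The interaction of *Dock6* was -2.31 ± 0.27 (limma adjusted p = 2.72e-05), and within each of the 2 library sets its *Thrb*-KO response was not called, which made it a lost gene there. *Prss28*, a serine protease gene with close copies beside it, measured 229, 207, 869 and 611 CPM and then 1.78, 1.54, 13.8 and 7.54 CPM in wild type, against 135 to 206 and 8.64 to 14.0 CPM in *Thrb*-KO. Reads may be split among the *Prss28* copies, and its interaction of 2.32 ± 0.65 (limma adjusted p = 0.0438) missed the threshold with TMM factors (adjusted p = 0.064), edgeR (0.0984) and DESeq2 (0.0698). Further weakened genes, named after their values were seen, were *Pcsk1*, a prohormone convertase, and *Foxo6*, a forkhead transcription factor. *Pcsk1* fell from 598 to 784 CPM to 120 to 132 CPM in wild type and from 222 to 323 CPM to 147 to 174 CPM in *Thrb*-KO, with an interaction of 1.73 ± 0.14 (limma adjusted p = 4.99e-07). *Foxo6* rose from 4.02 to 7.99 CPM to 26.6 to 40.6 CPM in wild type and from 8.71 to 11.0 CPM to 19.9 to 25.5 CPM in *Thrb*-KO, with an interaction of -1.17 ± 0.22 (limma adjusted p = 0.00272).

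The kept class held 25 induced and 33 suppressed genes. Their *Thrb*-KO response was 77.2% and 73.5% of the wild-type response at the median, and a missing interaction call does not show that the responses were equal. The 95% interval of the interaction lay within 1.5-fold in both directions for 18 of the 58. *Tshb*, the thyrotropin β subunit, measured 3218, 2902, 6462 and 5679 CPM in hypothyroid and 76.5, 40.5, 422 and 271 CPM in hyperthyroid wild-type libraries. The *Thrb*-KO values were 3227, 3212, 3547, 4461 and 4832 CPM without T3 and 139, 84.9, 138, 169 and 149 CPM with it. T3 lowered *Tshb* by 4.96 ± 0.51 log2 units in wild type and by 4.83 ± 0.46 in *Thrb*-KO, and the interaction was 0.13 with a 95% interval from -1.31 to 1.56. The *Tshb* interaction had opposite signs in the library sets, 0.88 within replicates 1 and 2 and -0.64 within replicates 3 to 5, and was called in neither. *Cga*, the α subunit shared by thyrotropin and the gonadotropins, measured 6393, 5973, 11010 and 9097 CPM and then 1272, 1153, 1652 and 1342 CPM in wild type, against 5161 to 6761 and 1284 to 1436 CPM in *Thrb*-KO. Its interaction was 0.43 with an interval from -0.03 to 0.90. In whole pituitaries, fewer cells of a type and less RNA per cell cannot be told apart.

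*Prl*, the prolactin gene of lactotrophs, rose from 5863 to 9334 CPM to 14523 to 53184 CPM in wild type and from 4718 to 5917 CPM to 12031 to 20408 CPM in *Thrb*-KO. The highest of these values, 53184 CPM, was in hyperthyroid wild type replicate 3, and the interaction of -0.07 had an interval from -0.93 to 0.80. *Hr*, a nuclear corepressor and a T3 target in brain and skin, measured 28.1, 29.2, 20.6 and 20.7 CPM and then 200, 206, 125 and 193 CPM in wild type. The *Thrb*-KO libraries measured 48.1, 59.6, 56.5, 62.8 and 33.3 CPM and then 257, 248, 230, 206 and 228 CPM, so every hypothyroid *Thrb*-KO library lay above the hypothyroid wild-type libraries. The *Hr* interaction was -0.64 ± 0.25 (limma adjusted p = 0.185), but it was called and the gene counted as weakened with DESeq2 (adjusted p = 0.025), with the library set as a block (0.0499), without hyperthyroid wild type replicate 3 (0.0315) and without hypothyroid *Thrb*-KO replicate 5 (0.0378). *Adcy7*, an adenylyl cyclase, rose from 7.90 to 14.1 CPM to 30.8 to 53.4 CPM in wild type and from 9.69 to 20.5 CPM to 47.2 to 62.0 CPM in *Thrb*-KO, and its interaction was -0.13 with an interval from -0.73 to 0.47.

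*Slco5a1*, an organic anion transporter family member, measured 3.08, 3.18, 1.61 and 1.96 CPM and then 12.6, 14.3, 4.14 and 9.11 CPM in wild type, against 1.23 to 2.98 and 3.88 to 8.49 CPM in *Thrb*-KO. *Fut2*, a fucosyltransferase, rose from 8.36 to 12.3 CPM to 46.9 to 62.0 CPM in wild type and from 4.60 to 9.40 CPM to 18.8 to 29.1 CPM in *Thrb*-KO. *Camk2a*, a calcium and calmodulin-dependent kinase, rose from 13.6 to 15.5 CPM to 20.2 to 46.9 CPM in wild type and from 17.2 to 25.3 CPM to 31.6 to 48.1 CPM in *Thrb*-KO. The repeat matches beside *Slco5a1* and *Adcy7* are shown as examples from genes that responded in both genotypes. The half-sites are in capitals, the *Slco5a1* sequence is on the plus strand and the *Adcy7* sequence on the minus strand of build mm9.
Slco5a1: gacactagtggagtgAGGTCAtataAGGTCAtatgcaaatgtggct
Adcy7: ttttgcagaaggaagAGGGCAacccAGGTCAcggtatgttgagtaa
The *Slco5a1* match, in chr1:12944434-12944479, held all 12 half-site bases and lay 36801 bases inside the gene. The *Adcy7* match, in chr8:90806774-90806819, held 11 of 12 and lay 10495 bases inside the gene. Both peaks overlapped a T3-regulated region of open chromatin, as did those of *Bmp7*, *Col4a3* and *Sspo* printed above. The peaks with a match beside *Hr*, also kept, and *Dock6*, weakened, did not overlap such a region. Repeats of this kind thus stood beside kept and lost genes.

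Kept suppression also covered genes outside the thyrotropin subunits. *Rgs4*, a regulator of G-protein signalling, fell from 108 to 169 CPM to 28.4 to 36.4 CPM in wild type and from 98.5 to 132 CPM to 34.1 to 50.6 CPM in *Thrb*-KO, and its interaction was called within replicates 3 to 5 alone. *Ttr*, the thyroid hormone carrier transthyretin, fell from 8.25 to 16.8 CPM to 1.21 to 3.61 CPM in wild type and from 6.15 to 8.12 CPM to 1.20 to 1.64 CPM in *Thrb*-KO. *C2cd4a* fell from 7.48 to 8.59 CPM to 2.27 to 3.46 CPM in wild type and from 7.26 to 12.7 CPM to 2.68 to 4.21 CPM in *Thrb*-KO. *1500009L16Rik* fell from 12.5 to 15.9 CPM to 2.64 to 3.93 CPM and from 8.68 to 14.9 CPM to 3.40 to 4.20 CPM, and it became a weakened gene without hyperthyroid wild type replicate 3. *Man1a*, a mannosidase of glycoprotein processing named after its values were seen, lay at the edge of the class. Its interaction of 1.14 ± 0.33 had an adjusted p of 0.0503 in limma and of 0.00175 with the replicate number as a block, where the gene counted as weakened.

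Both genes of the enhanced class were suppressed by T3 and started from a higher level in *Thrb*-KO. *Ache*, acetylcholinesterase, measured 52.6 to 61.0 CPM in hypothyroid and 22.9 to 39.3 CPM in hyperthyroid wild type, against 105 to 133 and 30.9 to 42.7 CPM in *Thrb*-KO. Its interaction was -0.83 ± 0.19 (limma adjusted p = 0.0101). *Pygm*, muscle glycogen phosphorylase, measured 12.3 to 14.6 and 7.74 to 10.5 CPM in wild type, against 25.7 to 31.3 and 8.93 to 14.0 CPM in *Thrb*-KO, with an interaction of -0.70 ± 0.16 (limma adjusted p = 0.0112). For both genes the hypothyroid *Thrb*-KO libraries lay above every wild-type library, while the hyperthyroid libraries of the genotypes overlapped. Neither interaction was called within replicates 3 to 5, and *Pygm* had no called wild-type response with edgeR or TMM factors.

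The 3 reversed genes moved in opposite directions in the genotypes. *Col24a1*, a fibrillar collagen, measured 4.68, 6.21, 6.31 and 8.30 CPM and then 48.2, 60.2, 23.8 and 45.6 CPM in wild type. The *Thrb*-KO values were 14.5, 18.1, 30.8, 28 and 19.0 CPM without T3 and 10.1, 10.7, 9.39, 9.33 and 9.79 CPM with it. T3 raised *Col24a1* by 2.57 ± 0.24 log2 units in wild type and lowered it by 1.04 ± 0.22 in *Thrb*-KO, with no overlap of libraries in either, and the interaction was -3.61 ± 0.32 (limma adjusted p = 1.25e-06). *Cilp*, a cartilage matrix protein, measured 18.4 to 22.0 and 47.0 to 68.1 CPM in wild type, against 16.2 to 27.7 and 10.9 to 13.6 CPM in *Thrb*-KO, and within each of the 2 library sets its *Thrb*-KO response was not called. *Casq2*, a calcium-binding calsequestrin, measured 5.65 to 8.68 and 3.04 to 4.31 CPM in wild type, against 3.61 to 5.17 and 6.43 to 10.2 CPM in *Thrb*-KO. The *Casq2* interaction was 1.57 ± 0.19 (limma adjusted p = 4.37e-05), and that of *Cilp* was -2.12 ± 0.18 (limma adjusted p = 8.20e-07).

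The 5 knockout-only genes had responses in *Thrb*-KO below 2-fold. *Tmem200a*, a membrane protein gene of little-known function, measured 6.62 to 8.48 and 4.26 to 6.05 CPM in wild type, against 11.1, 12.4, 12.5, 13.2 and 14.8 CPM without T3 and 21.1, 21.6, 22.9, 24.9 and 26.1 CPM with T3 in *Thrb*-KO. Its interaction was 1.31 ± 0.15 (limma adjusted p = 1.66e-05), and within replicates 3 to 5 its wild-type fall was also called. *Diap3*, a formin that nucleates actin, measured 3.00 to 4.59 and 4.72 to 7.22 CPM in wild type, against 3.21 to 4.48 and 1.91 to 2.64 CPM in *Thrb*-KO, and counted as reversed with edgeR. *A530058N18Rik*, a noncoding transcript, measured 1.87 to 2.18 and 2.07 to 2.88 CPM in wild type, against 4.00 to 5.72 and 2.20 to 3.37 CPM in *Thrb*-KO. *Col27a1*, a fibrillar collagen, measured 54.3 to 62.9 and 35.0 to 79.8 CPM in wild type, against 145 to 178 and 81.3 to 101 CPM in *Thrb*-KO. The *Col27a1* interaction (-0.80 ± 0.23, limma adjusted p = 0.0478) kept its call in none of the fits that left out a library, other than the fit without hyperthyroid wild type replicate 3. *Marchf11*, a ubiquitin ligase named after its values were seen, measured 3.25 to 4.50 and 3.24 to 5.39 CPM in wild type, against 2.97 to 3.60 and 5.74 to 6.79 CPM in *Thrb*-KO, and lost its call with edgeR (adjusted p = 0.056) and TMM factors (0.0608). With the replicate number as a block the class held 9 genes.

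**Figure D3:**
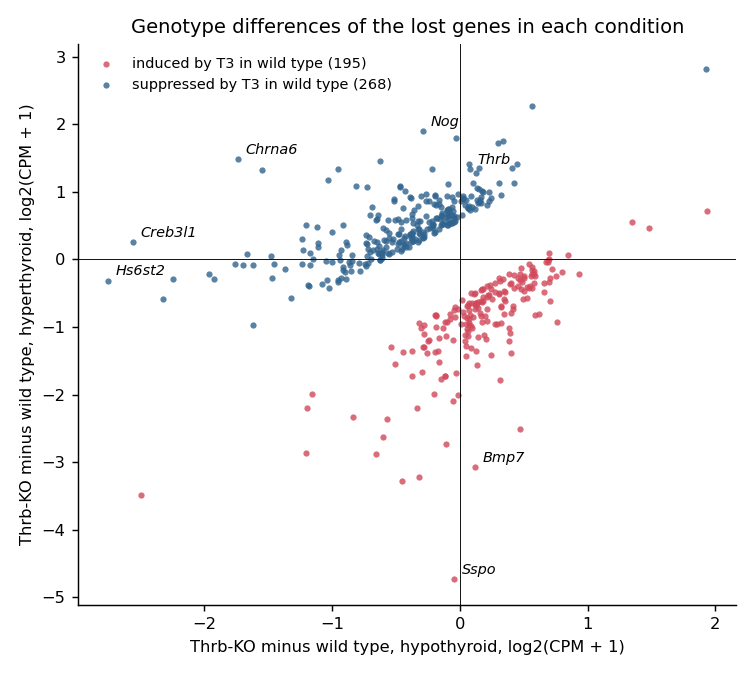
Genotype difference (*Thrb*-KO minus wild type, log2 of CPM + 1) in hypothyroid libraries on the horizontal axis and in hyperthyroid libraries on the vertical axis, with 1 point for each of the 463 genes that lost the response, 195 induced in red and 268 suppressed in blue. *Sspo* and *Bmp7* lie near 0 across and far below 0 down, while *Creb3l1* and *Hs6st2* lie far to the left and near 0 on the vertical axis.

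The genotypes were also compared at each hormone level, which shows at which end a lost response differed. Over all genes tested, hypothyroid *Thrb*-KO libraries were higher for 133 genes (1.01%) and lower for 264 (2.01%), and hyperthyroid *Thrb*-KO libraries were higher for 334 (2.54%) and lower for 305 (2.32%). With TMM factors the hyperthyroid counts were 239 higher and 389 lower, with edgeR 289 and 504, with DESeq2 298 and 590, and without hyperthyroid wild type replicate 3 they were 264 and 387. Of the 195 genes that lost induction, 125 were lower in hyperthyroid *Thrb*-KO and 117 of these differed there and not in hypothyroid libraries. Another 17 differed only by a higher level in hypothyroid *Thrb*-KO, and 52 passed neither test. Of the 268 genes that lost suppression, 80 differed only by a lower level in hypothyroid *Thrb*-KO and 97 only by a higher level in hyperthyroid *Thrb*-KO, with 11 called at both ends in opposite directions and 78 at neither. *Creb3l1* (-2.56 log2 units) and *Hs6st2* (-2.75) differed at the hypothyroid end and *Sspo* at the hyperthyroid end, whereas *Asb4* was lower at the hypothyroid end (-1.03) and higher at the hyperthyroid end (1.17). On a scale on which hypothyroid wild type is 0% and hyperthyroid wild type is 100%, the median lost induced gene lay at 16.6% in hypothyroid and 28.4% in hyperthyroid *Thrb*-KO. The median lost suppressed gene lay at 36.8% and 51.7%, so without T3 it was already farther along its wild-type change. The interaction is the difference of these contrasts, so the counts describe the members and do not test them.

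The lists of genes with known roles showed where these classes fell. All 7 pituitary hormone genes, which mark the tissue and measured at least 40.5 CPM in every library, were tested and none had a called interaction. *Prl*, *Tshb* and *Cga* were kept, while *Fshb*, *Lhb* and *Pomc* were called in neither genotype. *Gh*, growth hormone, measured 48332, 51022, 66226 and 57732 CPM and then 104306, 87356, 159094 and 112135 CPM in wild type. In *Thrb*-KO it measured 57762 to 73698 CPM without T3 and 82874 to 114941 CPM with it, and the libraries did not overlap in either genotype. The *Gh* response was called in wild type (1.03 ± 0.21) and not in *Thrb*-KO (0.50 ± 0.19, limma adjusted p = 0.337), and the interaction of -0.53 had an interval from -1.13 to 0.08, so it was not resolved. Among 8 genes of thyroid hormone handling, 4 were tested. *Dio2* and *Trhr* were weakened, and *Slc16a10*, an amino acid and thyroid hormone transporter (interaction 0.35 ± 0.25), was called in neither genotype. *Dio1* and *Crym* were tested only with the filter of 1 CPM in at least 4 libraries and were not called, and *Dio3* and *Slco1c1* were below that limit.

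The counts of called genes in these lists are to be read against 3.87% higher and 5.59% lower in wild type and 0.411% and 0.601% in *Thrb*-KO over all genes tested, so a count of 0 in *Thrb*-KO in a list this short lies near the background. Of 14 receptors and cofactors, *Thrb*, the gene altered in *Thrb*-KO, was the only gene called in wild type and the only called interaction. Of 16 genes known as T3 targets in other tissues, 12 were tested, of which 5 rose in wild type and 2 rose in *Thrb*-KO. The list did not record in which direction T3 moves each gene in those tissues, so directions were not compared. *Klf9*, a Krüppel-like factor, and *Hr* were kept, *Bcl3*, an IκB-family coregulator, and *Myh7* were lost, and *Gpd2*, the mitochondrial glycerol phosphate dehydrogenase, was unresolved (interaction -0.55 ± 0.18, limma adjusted p = 0.0794). *Gpd2* counted as lost with TMM factors (adjusted p = 0.0172), edgeR (0.0233), DESeq2 (0.00268), without hyperthyroid wild type replicate 3 (0.00643) and within replicates 1 and 2 (0.00716). *Bcl3* measured 2.11 to 2.40 and 11.4 to 12.8 CPM in wild type, against 2.39 to 4.13 and 3.12 to 5.55 CPM in *Thrb*-KO, with an interaction of -1.60 ± 0.20 (limma adjusted p = 4.97e-05). *Klf9* measured 60.5 to 72.5 and 90.3 to 143 CPM in wild type, against 64.8 to 99.9 and 122 to 145 CPM in *Thrb*-KO, with an interaction of -0.21 and an interval from -0.59 to 0.17. Of 10 lineage factors tested, 2 rose and 2 fell in wild type and none was called in *Thrb*-KO. *Neurod4*, a basic helix-loop-helix factor, lost its induction, measuring 21.4 to 37.2 and 66.9 to 105 CPM in wild type against 28.5 to 42.0 and 42.7 to 53.3 CPM in *Thrb*-KO (interaction -1.12 ± 0.23, limma adjusted p = 0.00532). Of 9 hypothalamic and feedback receptors tested, 1 rose in wild type and none had a called interaction.

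No tested marker of other cell types had a called interaction in the 9 marker lists, none of the skeletal muscle markers passed the filter, and the part of these cell types in the results was not tested. In 3 lists the summed markers differed without overlap between the wild-type conditions and overlapped in *Thrb*-KO. Over all genes tested, single genes did not overlap for 17.4% in wild type and 5.58% in *Thrb*-KO. The median response of the erythroid members tested was 0.68 log2 units in wild type and 0.518 in *Thrb*-KO. These medians were -0.213 and -0.102 for intermediate lobe markers, and 0.336 and 0.031 for stem and folliculostellate markers. Erythroid markers summed to 53.2 to 98.4 and 120 to 136 CPM in wild type, against 44.8 to 109 and 46.5 to 148 CPM in *Thrb*-KO. Intermediate lobe markers summed to 379 to 534 and 276 to 358 CPM in wild type, against 246 to 383 and 216 to 315 CPM in *Thrb*-KO. Stem and folliculostellate markers summed to 41.9 to 45.4 and 48.2 to 63.6 CPM in wild type, against 43.3 to 48.9 and 41.4 to 50.0 CPM in *Thrb*-KO. Among single markers, the collagens *Col1a1* and *Col3a1* of stroma fell and *Aldh1a1* of the stem list rose in wild type, and each was unresolved in *Thrb*-KO. The summed myeloid markers ranged from 104 to 129 CPM in hypothyroid and from 78.8 to 149 CPM in hyperthyroid wild type, against 61.2 to 70.7 and 61.0 to 82.5 CPM in *Thrb*-KO, so the hypothyroid groups did not overlap between genotypes. How often single genes separated the genotypes in this way was not counted, and a difference in myeloid cells was not tested. The summed proliferation markers ranged from 30.4 to 43.7 and 19.3 to 64.7 CPM in wild type and from 26.0 to 32.1 and 36.3 to 65.7 CPM in *Thrb*-KO, where the conditions did not overlap. Posterior lobe and hypothalamic markers summed to at most 34.7 CPM.

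The loss was also measured in libraries that had no part in choosing the genes. Genes called in wild type within replicates 1 and 2 were measured within replicates 3 to 5, and the other way round, with no test. The 558 genes chosen as induced in replicates 1 and 2 had a median response in replicates 3 to 5 of 0.83 log2 units in wild type and 0.22 in *Thrb*-KO, and 546 of them had the smaller response in *Thrb*-KO. The 696 chosen as suppressed had medians of -0.86 and -0.21, and 665 had the smaller fall in *Thrb*-KO. In the other direction, 552 genes chosen as induced in replicates 3 to 5 had medians of 0.80 and 0.14 in replicates 1 and 2, and 956 chosen as suppressed had medians of -0.63 and -0.23. Of these, 533 induced genes had the smaller rise and 879 suppressed genes the smaller fall in *Thrb*-KO. Over all genes tested the interaction was negative for 37.8% and positive for 62.2% in replicates 3 to 5, and for 51.5% and 48.5% in replicates 1 and 2. Of 348 more positive and 176 more negative interactions called within replicates 3 to 5, 100% had the same direction within replicates 1 and 2, against 48.5% and 51.5% of all genes tested. Of 368 and 414 called within replicates 1 and 2, 99.2% and 98.8% had the same direction within replicates 3 to 5, against 62.2% and 37.8% of all genes. The interaction was called in both sets for 208 genes in the positive and 146 in the negative direction.

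**Figure D4:**
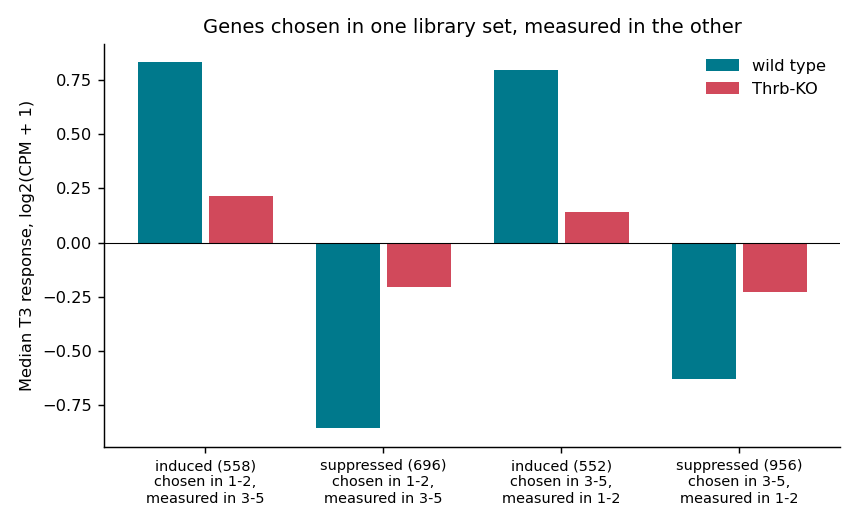
Bars give the median T3 response (log2 of CPM + 1) in wild type and in *Thrb*-KO of genes chosen by their wild-type response in 1 library set and measured in the other, with no error bars because the bars are medians over genes. In all 4 pairs the *Thrb*-KO bar is nearer 0, for example 0.22 against 0.83 for the 558 induced genes chosen in replicates 1 and 2.

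Binding and open chromatin near the classes were compared as a readout that the classes had not used. Of the tested genes, 12898 (98.1%) could be placed on build mm9, and 41.3% of them had a TRβ-HAB peak of untreated pituitary within 20 kb of the gene body. The share was 78.1% of 192 placed lost induced genes, 100% of 20 weakened induced genes and 96.0% of 25 kept induced genes. On the suppressed side it was 37.2% of 266 lost genes, 27.3% of 33 weakened genes and 34.4% of 32 kept genes, which lay near or below the share of all genes. *Tshb*, *Cga*, *Dio2* and *Trhr* had no peak within 20 kb, whereas *Creb3l1* had 2. Peaks of chromatin that T3 regulated, from 1776 regions in nuclei labelled through a *Thrb* Cre driver, lay within 20 kb of 34.9%, 65.0% and 56.0% of lost, weakened and kept induced genes, against 7.79% of all genes. The shares for suppressed genes were 10.5%, 9.09% and 3.12%. TRβ-HAB peaks with a repeat match lay near 38.0% of lost, 65.0% of weakened and 72.0% of kept induced genes, against 10.7% of all genes tested and 9.40%, 6.06% and 3.12% of the suppressed classes.

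The median gene length was 40.5 kb for lost induced, 31.0 kb for weakened induced and 30.2 kb for kept induced genes, against 25.0 kb for all genes, and longer genes offer a longer window. With a window of 100 kb, 89.6% of lost induced genes and 70.8% of all genes had a TRβ-HAB peak, and with 5 kb the shares were 67.2% and 30.3%. The differences between the classes were not tested, and the peak lists held merged libraries with no replicate values.

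**Figure D5:**
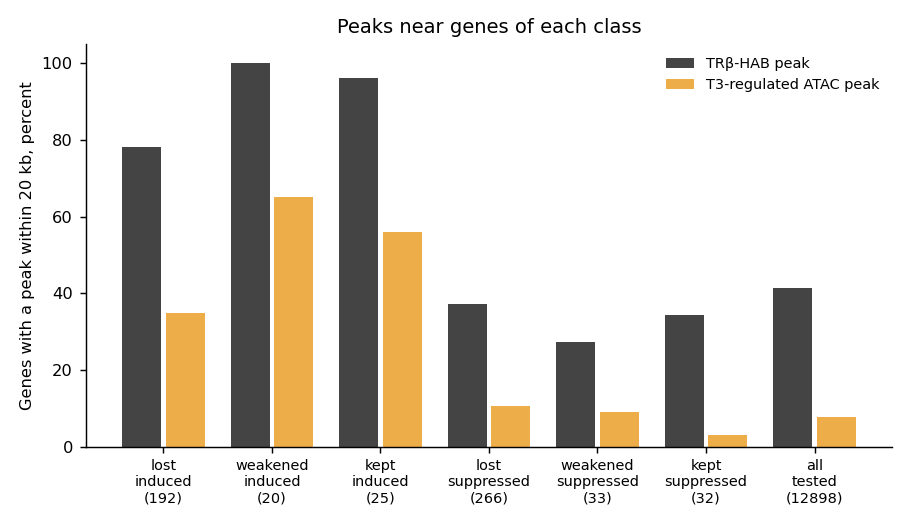
Share of genes in each class (percent of placed genes) with a TRβ-HAB peak (dark bars) or a T3-regulated open chromatin peak (yellow bars) within 20 kb of the gene body, beside all genes tested, with the number of placed genes under each class. The induced classes reach 78.1% to 100% for TRβ-HAB peaks, the suppressed classes 27.3% to 37.2%, and all genes 41.3%.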

How the data were processed

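Polyadenylated RNA from pools of 3 pituitaries was sequenced as single-end 50-base reads, and the authors aligned the reads with BBMap to RefSeq transcripts of build mm9 and deposited CPM values (read counts scaled to a common library total). The values gave whole read counts for 100% of entries (tolerance 0.05), with 21453548 to 55273749 reads per library (median 34673225). No per-sample column was left unused (0). The deposited peak lists hold read counts, p-values and fold ratios, made by the authors with SICER from merged ChAP-seq libraries and with MACS2 and edgeR for ATAC-seq. Their positions and reads were used. The ATAC list, of regions that changed with T3, gives an adjusted p and no direction, and that column was not used.

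For each gene symbol the transcript with the highest mean was kept (29082 rows, 22835 symbols), and genes above 1 CPM in all 18 libraries were fitted with limma 3.58.1 (trend) in R 4.3.3 on log2(CPM + 1) in a single model of 4 groups. A call needed an adjusted p below 0.05 and 1.5-fold, and tests were 2-sided. The Benjamini-Hochberg adjustment ran over all 13145 genes, separately for each contrast. edgeR 4.0.16 and DESeq2 1.42.0 were run on the recovered counts as alternatives, together with TMM factors, other filters, pseudocounts of 0.1 and 0.5, summed transcripts, blocks, fits within library sets and fits that left out each library. The method was tested on simulated data. The counts of genes differing between genotypes were recomputed under the alternatives by a choice made after seeing the data.

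The members, lists and tests were chosen with earlier results of these data known. Genes were named by rule: the 6 per direction with the largest interaction (lost) or the largest smaller response (kept) and the 4 with the largest interaction in each other class, among members whose libraries did not overlap. *Thrb*, *Thra*, *Lars2* and the lists of hormones and hormone handling were added. Of the list of hormone handling, 1 gene is not reported here. Deviations of same-numbered libraries from their group means were correlated in all 25 pairs (r = 0.13 to 0.815), against 0.271 to 0.755 for other numbers of the same set and -0.779 to -0.243 across sets. All pairs passed 0.1, so the number was also used as a block, but the range for same-numbered libraries overlapped that for other numbers of their set, and the labels do not say what a number shares. Libraries were built with TruSeq or ThruPLEX kits, and which library used which was not given in the sources used here. No source says whether pools shared animals or cages, so p-values measure the spread between these libraries. In 25 rows the symbol had been turned into a date, and *Marchf11* was recovered from its accession through RefSeq gene names. Whether counting used strand was not given in the sources used here.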

Additional observations from a re-analysis of the deposited data

Results flagged for a closer look

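In 8 groups of 4 or 5 libraries a single library of a named gene lay far from the rest. Chance alone flags about 1 in 20 groups. Each of the 59 named genes tested has 4 groups, so the 8 flags do not exceed that rate. *Hr* measured 125 CPM and *Pygm* 10.5 CPM in hyperthyroid wild type replicate 3, the library that also stood apart in ribosomal protein genes. *Asb4* measured 68.3 CPM in hyperthyroid wild type replicate 4. In hyperthyroid *Thrb*-KO, *Ttr* measured 1.20 CPM in replicate 1, and replicate 3 held 76.2 CPM of *Dock6* and 5391 CPM of *Pomc*. *Nog* measured 24.9 CPM in hypothyroid wild type replicate 1 and *Aspm*, a mitotic spindle gene, 4.21 CPM in hypothyroid wild type replicate 4.

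The T3 response differed between the genotypes, by the limma test of the interaction, for 37 of the 59 named genes tested. Most of the 37 were named for a large interaction or after their values were seen, so this count follows from the choice. Over all genes tested the interaction was called for 2.48% in the positive and 1.78% in the negative direction. Among genes that lost induction the interactions, in log2 units of *Thrb*-KO minus wild type, were *Sspo* -4.69, *Bmp7* -3.20, *Myh7* -2.99, *Upk3a* -2.89, *Col4a3* -2.83, *Cdc42ep2* -2.61, *Col4a4* -2.02, *Bcl3* -1.60 and *Neurod4* -1.12. Among genes that lost suppression they were *Chrna6* 3.22, *Kcnk10* 2.88, *Creb3l1* 2.82, *Hs6st2* 2.44, *Gpr123* 2.29, *Asb4* 2.21, *Nog* 2.19 and *Thrb* 1.26. The weakened genes were *Dio2* 2.81, *Prss28* 2.32, *Dock6* -2.31, *Trhr* 2.04, *Pcsk1* 1.73 and *Foxo6* -1.17. The enhanced genes were *Ache* -0.83 and *Pygm* -0.70, and the reversed genes were *Col24a1* -3.61, *Cilp* -2.12 and *Casq2* 1.57. The knockout-only genes were *Tmem200a* 1.31, *Diap3* -1.07, *A530058N18Rik* -0.85, *Col27a1* -0.80 and *Marchf11* 0.64. Genes called for the interaction alone were *Neurod1* -0.69, *Aspm* 0.90, *Kif18a* 0.91 and *Ccnf* 0.70.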

How the results depend on the processing

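With the replicate number as a block, 753 interactions were called in place of 560 (419 more positive and 334 more negative), lost induced genes numbered 271, lost suppressed 337 and unresolved genes 546, the knockout-only class held 9 genes in place of 5 and the interaction alone class 62 in place of 34. Among named genes the replicate block changed the interaction call of *Man1a* and of no other. More negative interactions numbered 384 with DESeq2 and 414 within replicates 1 and 2, and lost induced genes 320 with DESeq2, 327 within replicates 1 and 2 and 299 when a fold ratio replaced the interaction test. Without a fold limit there were 94 weakened, 114 kept and 5 reversed genes. The enhanced class held 1 gene with TMM factors, 1 with edgeR, 1 with DESeq2 and 0 within replicates 3 to 5. The knockout-only class held 10 genes with 1 CPM in at least 4 libraries, 10 with DESeq2, 9 with the library set as a block, 8 with no filter, 11 within replicates 1 and 2 and 3 within replicates 3 to 5.

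Hypothyroid *Thrb*-KO libraries were higher for 359 genes without a fold limit and for 292 within replicates 3 to 5, and lower for 418 with DESeq2 and 542 without a fold limit. Hyperthyroid *Thrb*-KO libraries were higher for 1021 genes without a fold limit and 694 within replicates 3 to 5, and lower for 590 with DESeq2, 504 with edgeR and 565 without a fold limit. TRβ-HAB peaks lay within 100 kb of 89.6% of lost induced, 63.9% of lost suppressed, 100% of kept induced and 68.8% of kept suppressed genes, and within 5 kb of 67.2% and 25.9% of lost induced and lost suppressed genes.

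When each library was left out in turn, more positive interactions ranged from 279 to 346 and more negative from 194 to 373, lost genes from 406 to 579, lost induced genes from 160 to 311, weakened from 44 to 60, kept from 48 to 70, enhanced from 1 to 2, reversed from 2 to 3 and knockout-only from 4 to 7. The counts of 373 and 311 came without hyperthyroid wild type replicate 3. The enhanced class held 1 gene without hyperthyroid wild type replicates 1, 2 or 4 or hypothyroid wild type replicates 1 or 4. Genotype differences ranged from 109 to 155 and 218 to 295 (hypothyroid, higher and lower) and from 264 to 403 and 280 to 387 (hyperthyroid). No called interaction of a named gene changed sign in any alternative run, and of the 59 named genes tested between 50 (within replicates 3 to 5) and 59 (pseudocount 0.5) had the same side of the threshold as in the report. The causes of these shifts were not tested, and genes below 1 CPM in any library were not tested for the values in the report.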

Other observations

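Genes at or below 1 CPM in some libraries were not tested above, and with the filter of 1 CPM in at least 4 libraries 14472 genes were tested and 604 lost the response. Of these, 128 had not been tested before, with 60 induced and 68 suppressed. A gene could pass this filter through a single wild-type group, since each held 4 libraries. Low values in the other groups then follow partly from the filter. The 128 and the examples below therefore describe genes that the filter admitted and do not test a loss. *Myh6*, the fast cardiac myosin heavy chain and the neighbour of *Myh7*, measured 0.143, 0.204, 0.275 and 0.326 CPM in hypothyroid and 51.2, 73.9, 54.8 and 109 CPM in hyperthyroid wild-type libraries. It stayed between 0.0543 and 0.342 CPM in all 10 *Thrb*-KO libraries (interaction -5.84 log2 units). *Tmem45b*, a membrane protein gene, measured 0.0725 to 0.175 CPM and then 8.64 to 10.5 CPM in wild type, and 0.0655 to 0.280 CPM over the *Thrb*-KO libraries. *Ghsr*, the ghrelin receptor, measured 0.551 to 2.65 CPM and then 6.45 to 15.6 CPM in wild type, and 0.256 to 1.43 CPM over the *Thrb*-KO libraries.

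Of the suppressed genes, 3 are given as examples. *Tyrp1*, an enzyme of melanin synthesis, measured 28.5, 28.7, 47.7 and 52.3 CPM in hypothyroid and 0.0550 to 0.568 CPM in hyperthyroid wild type. In *Thrb*-KO it measured 0.785 to 3.17 CPM without T3 and 0.238 to 0.734 CPM with it, and the interaction was 4.37. *Anxa10*, an annexin, measured 19.6 to 27.7 CPM in hypothyroid wild type and at most 0.752 CPM in any library of the other groups. *Rln3*, relaxin 3, measured 9.53 to 34.1 CPM in hypothyroid wild type and at most 1.83 CPM in the others. *Myh6* and *Ghsr* belong to the lists above, and the other 4 genes were chosen after their values were seen.

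A further 34 genes had a called interaction with neither genotype's response called, and in each the responses had opposite signs. The signs follow largely from the rule, since responses of the same sign that are both below 1.5-fold cannot differ by 1.5-fold. *Neurod1*, a basic helix-loop-helix factor, measured 4.94 to 5.91 and 5.71 to 7.97 CPM in wild type, against 10.6 to 14.5 and 7.85 to 9.02 CPM in *Thrb*-KO. *Kif18a*, a mitotic kinesin, measured 3.97 to 5.36 and 1.58 to 3.79 CPM in wild type, against 3.52 to 4.22 and 4.02 to 7.27 CPM in *Thrb*-KO (limma adjusted p = 0.0255). *Aspm* (limma adjusted p = 0.0277) and the cyclin *Ccnf* (0.0452) were also in this class, but lost the call with edgeR (adjusted p = 0.0738 and 0.0661) and with TMM factors (0.0509 and 0.0664). *Kif18a* counted as lost with edgeR. The summed proliferation markers did not overlap between hypothyroid and hyperthyroid *Thrb*-KO libraries, but *Mki67*, *Top2a* and *Cdk1* had interactions of 0.75, 1.06 and 0.78 that were not called (limma adjusted p = 0.316, 0.286 and 0.311).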
